A study of Homo sapiens with 2 samples.

Results

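The long arm of chromosome 20 carried 35 of the 385 summits called in ZMYND8 knockout mammospheres and 1439 of the 45924 summits called in parental mammospheres. The set holds every summit of both lists of chromosome 20 on hg19 from 29.4 Mb, where the centromeric bands end, to the chromosome end at 63025520. Left out is an interval taken for the ZMYND8 gene (45.83 to 46.00 Mb), and the set comes to 1474 of 46309 summits in all. No hg19 gene model of ZMYND8 was at hand, so that interval may reach beyond the gene. Knockout spheres carried a ZMYND8 knockout, whose design and clonality the labels do not state, and parental spheres are labelled wild type. Both were cultures of MDA-MB-231, an established human line from a triple-negative breast cancer, grown in MammoCult medium as mammospheres, which are floating spheres used to enrich for stem-like cells. Both were subjected to chromatin immunoprecipitation and sequencing (ChIP-seq) with the same antibody against ZMYND8. Each group had 1 library, so differences between them have no replicate error and were not tested. Read depth is not given in the sources used here. Intervals are exact 95% intervals (Clopper-Pearson for shares, Poisson for densities) and cover counting error only.

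ZMYND8 binds acetylated and methylated histone tails through its bromodomain, PHD and PWWP modules, and its MYND domain contacts corepressor complexes such as NuRD. In breast cancer cells it has been linked both to repression at enhancers and to activation together with hypoxia-inducible factors. The gene lies on 20q, an arm that is often gained in breast cancers. Copy number was not analysed here.

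The arm was chosen by its number of knockout summits, so its knockout counts are given as a description. It held 9.09% of the knockout list (6.41 to 12.4) and 3.13% of the parental list (2.98 to 3.30). In density this was 1.05 knockout summits per Mb (0.729 to 1.45) on 20q, against 0.116 (0.104 to 0.128) in the rest of the genome. Parental summits came to 43.0 per Mb (40.8 to 45.3) on 20q, against 14.8 (14.7 to 14.9) in the rest. Both lists were therefore dense on this arm, with knockout summits more so. There were 2.43 knockout summits per 100 parental ones on 20q (1.69 to 3.40), against 0.781 (0.701 to 0.868) in the rest.

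Set beside the other chromosome arms, 20q had the most knockout summits, ahead of 19p with 25, 15q with 22 and 14q with 21. By density it was followed closely by 19p, with 1.02 knockout summits per Mb, while the median of 46 arms was 0.0785. In parental summits the order was the other way, with 43.0 per Mb on 20q and 75.2 on 19p, and a median over arms of 14.99. The 46 arms include 13p, 14p, 15p and 22p, which held 0 summits in both lists. Their length also counts in the densities of the rest of the genome, as does that of centromeric bands, which are left out on 20q. Among the 41 arms with at least 100 parental summits, the knockout number per 100 parental summits was 2.90 on 18p, from 8 knockout summits, and 2.43 on 20q. It was 1.98 on 15q, 1.36 on 19p and 0.748 on 17q. The short arm of the same chromosome, 20p, held 2 knockout and 384 parental summits in 25.6 Mb, or 0.521 per 100. Centromeric bands are left out of all arms here, and with them a knockout summit at 26190105 and a parental one at 26190114. With so few knockout summits, the 20p ratio depends on where the arm is cut.

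**Figure D1:**
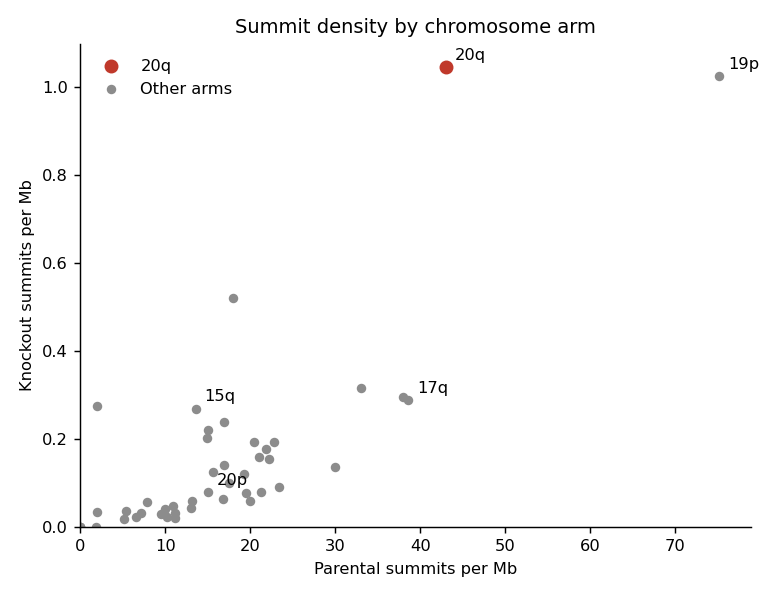
Knockout summits per Mb (vertical axis) against parental summits per Mb (horizontal axis), with 1 point per chromosome arm, centromeric bands left out. 20q (1.05 and 43.0) and 19p (1.02 and 75.2) stand above the other arms on the vertical axis, while 20p lies at 0.0781 knockout summits per Mb.

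Knockout summits of 20q were numerous but low in score. The score is the −log10 p or q value that the authors' peak caller gave each summit. It describes and ranks summits within a list, and where a common minimum is set in both lists this is said. On 20q the knockout scores ran from 1.46 to 10.8 with a median of 4.06, whereas in the rest of the knockout list the median was 4.66 and the maximum 427.6. Only 1 of the 35 reached a score of 10 (2.86%, 0.0723 to 14.9), against 47 of 347 in the rest (13.5%, 10.1 to 17.6). These intervals overlap. The rest includes a dense run in 15q24.2, without which it holds 328 knockout summits. Scores, and ratios at a minimum score, were not recomputed without that run. Parental scores leaned the other way. On 20q they ran from 1.34 to 40.0 with a median of 4.17, and 139 of 1439 reached 10 (9.66%, 8.18 to 11.3). Outside the arm the parental median was 3.79, and 6.15% (5.93 to 6.38) reached 10. Among summits with a score of at least 5 in both lists, 20q held 2.10 knockout summits per 100 parental ones (1.04 to 3.79), against 1.22 (1.03 to 1.42) in the rest. At a score of at least 10, 20q held 0.719 knockout summits per 100 parental ones (0.0181 to 4.07), from 1 knockout summit, against 1.72 (1.26 to 2.29) in the rest. The order of 20q and the rest was thus kept at 5, with intervals that overlap, and turned round at 10, where the interval on 20q spans both values. A common minimum does not make scores of separate lists comparable.

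Along the arm, parental summits gathered at its distal end, near its middle and just after the centromere. In 68 windows of 500 kb counted from the start of the arm, the last one shorter, the median was 15 parental summits per window, against 3 in the 5820 windows of the other arms. The densest was the window starting at 60900000 in 20q13.33, with 1 knockout and 116 parental summits, which stood at place 8 among the windows of all arms. The window starting at 61900000 in the same band held 2 knockout and 106 parental summits, and the one starting at 61400000 held 1 and 67. In 20q13.13 the window starting at 48900000 held 1 knockout and 96 parental summits. Close to the centromere, the window starting at 29900000 in 20q11.21 held 1 and 80. These 5 windows carried 32.3% of the parental summits of the arm and 6 of its 35 knockout summits.

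Knockout summits were spread over many more windows than the densest ones. They fell in 24 of the 68 windows of 20q (35.3%, 24.1 to 47.8), where the share over all 5888 windows of the genome was 4.89%. The 3 windows with most knockout summits, 3 in each, started at 33900000, 41900000 and 57400000. They held 31, 11 and 27 parental summits. All of the 10 windows of the arm with most parental summits had a knockout summit, 14 in all. The window starting at 45400000, by contrast, had 1 knockout and only 2 parental summits, but it runs into the interval left out for ZMYND8. The one starting at 58400000 also had 1 and 2. Over the 68 windows the counts in the 2 lists had a Spearman rho of 0.570, against 0.243 over the windows of the other arms. Both values describe windows of 1 knockout and 1 parental library. On the other arms 4.54% of windows had a knockout summit. Since the arm was chosen for its knockout summits, a higher rho is no independent result. Windows with a knockout summit had a median of 30.5 parental summits, and those without had a median of 8.5 and a highest count of 43.

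**Figure D2:**
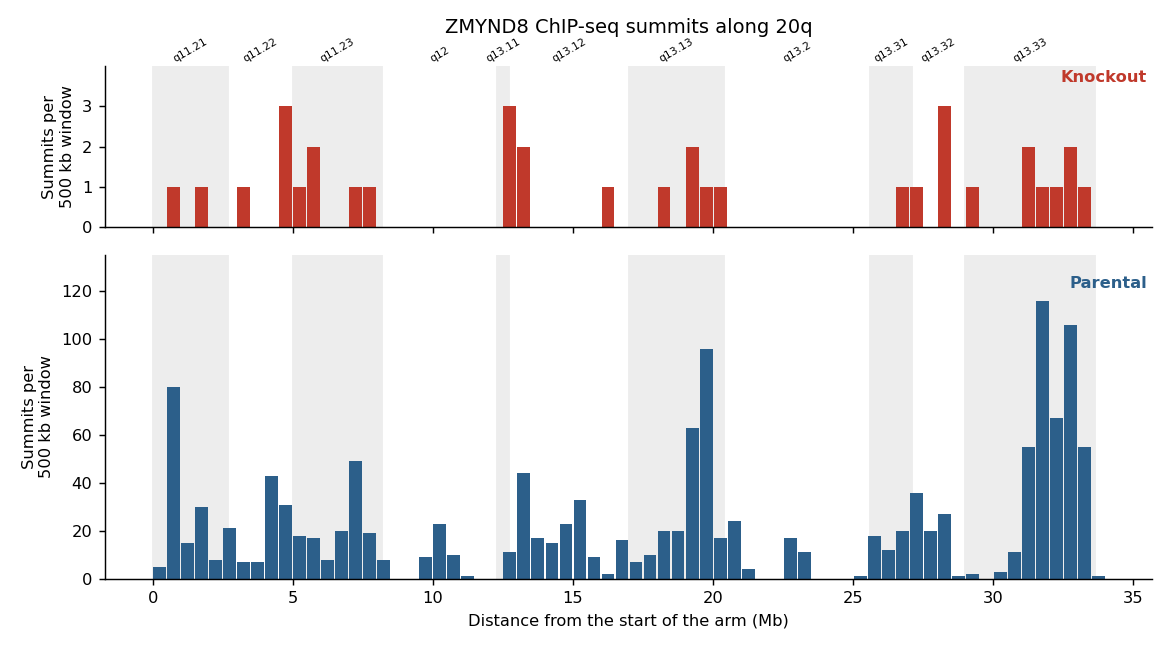
Summits per 500 kb window along 20q, knockout above and parental below, plotted by distance from the start of the arm in Mb; alternate chromosome bands are shaded. Knockout windows reach 3 summits and parental windows 116, and neither list has a summit in 10 of the 68 windows.

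Chromosome bands gave the same picture at a coarser scale. Dark Giemsa bands are generally gene-poor and light bands gene-rich, and on 20q the darkest bands, 20q12 and 20q13.2, had few summits for their length. Fewer parental summits per Mb were seen only in the short unstained 20q13.11, which held 1 knockout and 2 parental summits in 0.4 Mb. Band 20q12 held 0 knockout and 46 parental summits, and 20q13.2 held 0 and 61. Through counting error alone, an observed count of 0 in either band does not exclude a small expected number of knockout summits. Densest in parental summits was the terminal band 20q13.33, with 8 knockout and 416 parental summits, or 1.73 and 89.9 per Mb. Next came 20q13.13, with 5 knockout and 233 parental summits. The most knockout summits per Mb among bands longer than 1 Mb were in 20q13.32, with 2.11, from 4 knockout and 83 parental summits. Taken as classes, unstained bands held 1.39 knockout and 61.8 parental summits per Mb, and stained bands 0.737 and 26.1. The stained class was uneven, with no knockout summit in 20q12 and 20q13.2. Its paler bands 20q11.22, 20q13.12 and 20q13.32 held 1.74, 1.21 and 2.11 knockout summits per Mb. Their parental densities were 44.8, 40.7 and 43.7 per Mb, against 42.5 in unstained 20q11.23 and 89.9 in unstained 20q13.33.

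Most of the empty windows lay in those dark bands. The windows with no parental summit, 10 of 68 (14.7%, against 28.2% on the other arms), held no knockout summit either. The value for the other arms includes 13p, 14p, 15p and 22p, where every window was empty. In 20q12 the empty windows of the arm started at 37900000, 38400000, 40900000 and 41400000, the last of which reaches into 20q13.11. In 20q13.2 they started at 50900000, 51400000, 52900000, 53400000 and 53900000. The other started at 58900000 in 20q13.33. The longest stretch without a parental summit spanned 1.74 Mb between 52837521 and 54580466. The longest without a knockout summit was wider, 6.39 Mb between 49574859 and 55964627, and held 100 parental summits, 1 of them high scoring as defined next.

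High scoring parental summits made up a larger share of the list on the arm than elsewhere. Of the knockout summits of the arm with a parental summit within 1000 bp, 20 of 33 had one of them as the nearest, so this measure is tied to the choice of the arm and is given as a description. They are taken here as the 1000 highest of the list together with those tied with the last of them, 1133 in all, with scores of at least 13.6. They made up 59 of 1439 on 20q (4.10%, 3.14 to 5.26), against 2.40% (2.26 to 2.55) of the rest and 2.47% of the whole list. Per Mb, 20q held 1.76 of them and 19p held 1.93, with a median of 0.340 over the arms. They were spread over 26 windows, 18 of which had a knockout summit. Of the 42 windows with none of them, 6 had one.

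The 10 highest parental summits of 20q lay in 6 bands of the arm, and some but not all had a close knockout summit. At 62317782 in 20q13.33 the parental score was 40.0, with a knockout summit of score 6.80 at 39 bp. At 37063869 in 20q11.23 it was 39.6, with a knockout summit of score 3.49 at 185 bp. The summit at 48909413 in 20q13.13 had 36.9, with a knockout summit of score 3.49 at 47 bp. Close partners were thus present at the 3 highest summits. In the knockout list the first of these partners stood at place 77 and the others, with equal scores, at place 272. At 42411246 in 20q13.12 the score was 34.7, and the nearest knockout summit lay 30.3 kb away. At 57607114 in 20q13.32 it was 29.0, with a knockout score of 9.24 at 53 bp, and at 36662290 in 20q11.23 it was 28.6, with 5.59 at 194 bp. Summits at 46019441 and 46021288 in 20q13.12 had scores of 26.7 and 25.8. Both lie just beyond the interval left out for ZMYND8, and their nearest knockout summit, 30.9 kb from the first, is inside that interval. The remaining ones were 30284697 in 20q11.21, with a score of 26.3 and the nearest knockout summit 25.04 kb away, and 62339180 in 20q13.33, with 24.9 and a knockout summit of score 4.33 at 279 bp. In all, 5 of the 10 had a knockout summit within 200 bp and 6 within 1000 bp.

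Of the 35 knockout summits, 25 (71.4%, 53.7 to 85.4) had a parental summit within 200 bp, against 75.6% of the whole knockout list and 75.8% (70.9 to 80.2) of the rest of it. At this distance the 20q share thus lay close to the background. Within 100 bp it was 48.6% (31.4 to 66.0) on 20q and 63.4% (58.1 to 68.5) in the rest. The ones shared within 200 bp lay a median of 54 bp from the parental summit on 20q and 36 bp in the rest. Within 50 bp there were 10 of 35 (28.6%) on 20q and 162 of 347 (46.7%) in the rest. A further 7 lay beyond 200 and within 500 bp and 1 more within 1000 bp, which left 2 with no parental summit within 1000 bp.

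The parental summits next to the knockout ones were mostly strong. For the 33 knockout summits with a parental summit within 1000 bp, the nearest parental score had a median of 16.98 and ran from 1.68 to 40.0. It was at least 20 in 12 cases, from 10 to below 20 in 12, from 5 to below 10 in 5, and below 5 in 4. In 20 of the 33 it was one of the high scoring summits (60.6%), against 46.3% of 324 in the rest. These 33 knockout summits pointed to 32 parental ones, because the pair at 42380523 and 42380897 shared a neighbour.

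**Figure D3:**
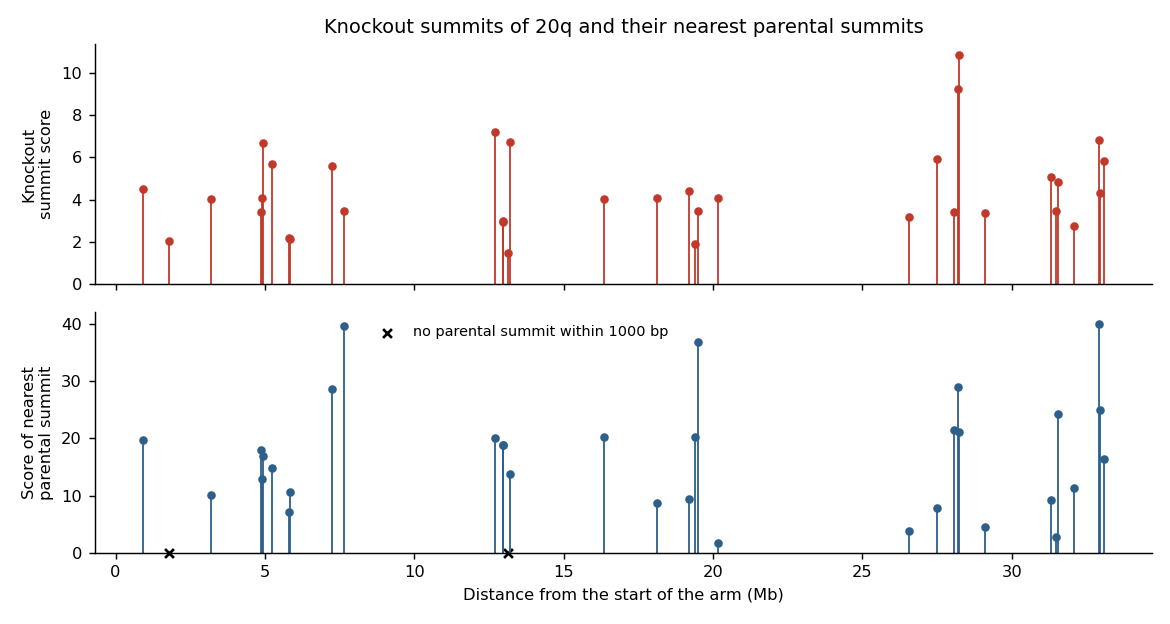
The 35 knockout summits of 20q by distance from the start of the arm in Mb, with the knockout score above and the score of the nearest parental summit within 1000 bp below; scores are the authors' −log10 values, each from its own list. Knockout scores end at 10.8 and parental ones at 40.0, and crosses mark the 2 knockout summits with no such neighbour.

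The strongest knockout summits of the arm stood in 20q13.32. A pair 10.6 kb apart, at 57617762 and 57607167, had scores of 10.8 and 9.24, with parental summits of score 21.2 at 137 bp and 29.0 at 53 bp. Their places in the whole knockout list were 43 and 52. Next came 42086745 in 20q13.11, which scored 7.17, with a parental summit of score 20.1 at 477 bp, and 62317821 in 20q13.33, with 6.80. At 42603447 in 20q13.12 the knockout score was 6.73, with a parental score of 13.7 at 24 bp. In 20q11.22 the summit at 34329888 had 6.67, with a parental score of 16.98 at 28 bp. A score of 5.94 belonged to 56884869 in 20q13.32, with a parental score of 7.77 at 53 bp. The other 3 of the 10 highest were 62497061 in 20q13.33 (5.82), 34638596 in 20q11.23 (5.69) and 36662096 in 20q11.23 (5.59). Their nearest parental summits, at 273, 16 and 194 bp, had scores of 16.5, 14.8 and 28.6. All of these 10 had a parental summit within 500 bp.

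At the low end were the knockout summits without a parental neighbour. The one at 31201455 in 20q11.21 had a score of 2.07, and its nearest parental summit lay 28751 bp away. The one at 42528382 in 20q13.12 had a score of 1.46, the lowest of the whole knockout list, and its nearest parental summit was at 11070 bp. For a few others the nearest parental summit was weak. At 49574859 in 20q13.13 the nearest parental score was 1.68, at 60888522 in 20q13.33 it was 2.73, at 55964627 in 20q13.31 it was 3.79 and at 58514707 in 20q13.33 it was 4.57. Stronger parental summits could lie slightly further off, and within 1000 bp the highest scores beside the first 3 were 6.70, 6.90 and 5.07.

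Some knockout summits lay close together. With gaps of at most 100 kb there were 7 groups holding 15 of the 35. The largest group was in 20q11.22, with 3 knockout and 9 parental summits over 77.1 kb between 34252753 and 34329888. Each of its knockout summits, with scores of 3.41, 4.08 and 6.67, had a parental summit within 30 bp, with scores of 17.9, 12.9 and 16.98. Others were the pair at 35203229 and 35234350 in 20q11.23, the pair 374 bp apart in 20q13.12, the pair at 42528382 and 42603447 in the same band, the 20q13.32 pair given above, and the pairs at 60888522 and 60934267 and at 62317821 and 62338901 in 20q13.33. The other 20 stood alone at this distance.

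Further weaker knockout summits are given here with their scores. Band 20q13.13 held 5 knockout summits spread over about 2.04 Mb. They included 47538368 (score 4.08), 48599296 (4.39) and 48808438 (1.90), next to parental scores of 8.77 at 182 bp, 9.43 at 34 bp and 20.2 at 113 bp. The last of these shows a weak knockout call beside a high scoring parental summit. The same held for 45752848 in 20q13.12 (score 4.01, parental score 20.2 at 20 bp), for 57465736 in 20q13.32 (3.41, parental 21.5 at 340 bp) and for 60934267 in 20q13.33 (4.81, parental 24.25 at 87 bp). Parental neighbours were of middling score at 32581717 in 20q11.22 (4.01, parental 10.1 at 89 bp), 60717978 in 20q13.33 (5.06, parental 9.20 at 347 bp) and 61492819 in 20q13.33 (2.77, parental 11.3 at 156 bp).

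The link between a parental summit's rank and a knockout neighbour held on the arm in the same order as in the rest of the list. Of all 20q parental summits, 25 of 1439 (1.74%, 1.1274 to 2.55) had a knockout summit within 200 bp, against 0.594% (0.525 to 0.670) in the rest and 0.636% over the whole list. Of the high scoring ones it was 14 of 59 (23.7%, 13.6 to 36.6) on 20q, against 123 of 1068 (11.5%, 9.66 to 13.6) in the rest and 12.3% over the whole list. Leaving out the dense run in 15q24.2, the rest came to 10.1% (8.35 to 12.1). Among the 100 highest parental summits it was 5 of 6 on 20q and 34 of 92 in the rest. From there to rank 1000 it was 9 of 53 (16.98%) and 89 of 976 (9.12%), from there to rank 10000 it was 8 of 367 (2.18%) and 90 of 10462 (0.860%), and below that 3 of 1013 (0.296%) and 51 of 32906 (0.155%). The 20q value was the higher one in all 4 classes, but the intervals overlapped in each. Since the arm was chosen for its knockout summits, a higher share is no independent result.

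**Figure D4:**
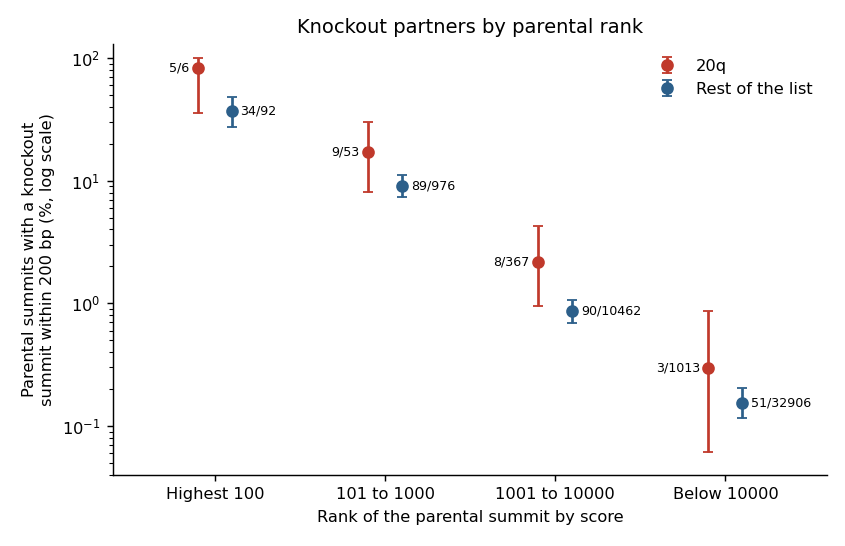
Share of parental summits with a knockout summit within 200 bp (percent, log scale) in 4 classes of parental rank, on 20q (left point of each pair) and in the rest of the list (right point); bars are exact 95% intervals and the fractions are counts. The 20q points run from 83.3% to 0.296% and those of the rest from 37.0% to 0.155%.

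Runs of closely spaced high scoring summits were few in the whole parental list. A run was 5 or more high scoring parental summits with neighbours at most 20 kb apart, and 2 of the 5 runs in the parental list were on this arm. The run in 20q11.21 spanned 47.8 kb between 30263501 and 30311260 and had 8 high scoring summits among 40 parental ones. Their median score was 7.41 and their highest 26.3, at 30284697. It held 1 knockout summit, at 30309739, with a score of 4.48 and a high scoring parental summit (19.6) at 63 bp. In the 100 kb to either side there were 21 parental summits with a median score of 4.42. The run in 20q11.22 was short, 8.94 kb between 33892653 and 33901590, with 5 high scoring summits among 9, a median score of 13.9 and a highest of 19.8 at 33896736. It had no knockout summit. The runs took 13 of the 59 high scoring summits of the arm, and the other 46 stood singly or in pairs. With a minimum of 3 summits the parental list held 20 runs, of which the same 2 were on 20q.

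**Figure D5:**
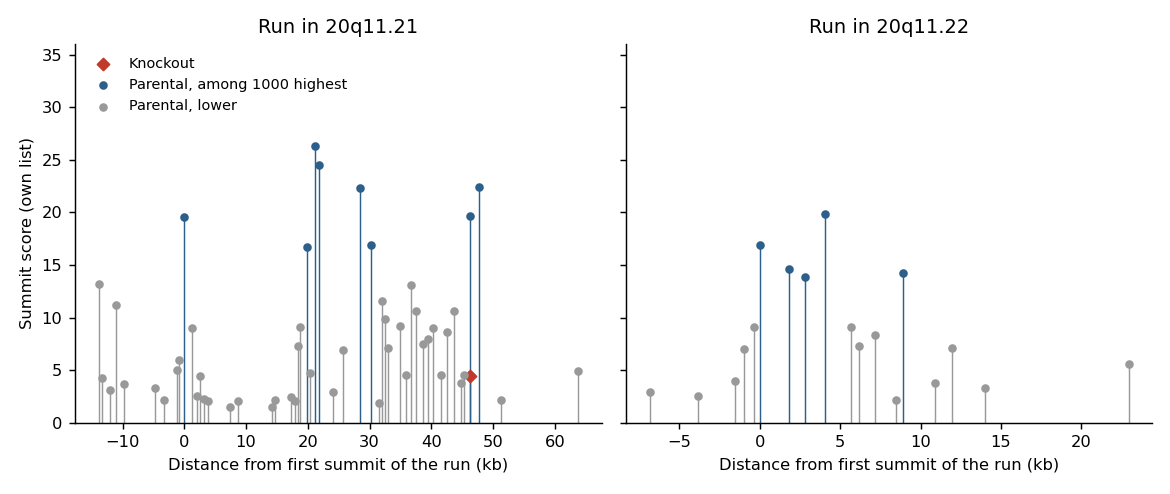
Summit scores (−log10, each from its own list) against distance in kb from the first summit of each run, with 20 kb to either side; knockout summits are diamonds, high scoring parental summits blue points and other parental summits grey points. The run in 20q11.21 reaches 26.3 and has 1 knockout summit, and that in 20q11.22 reaches 19.8 and has none.

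Around the knocked-out gene the members were few. The interval left out for ZMYND8 held 3 knockout and 49 parental summits. They are counted in the values of the whole lists but neither on 20q nor in the rest. Summit lists carry no transcript or protein level, so the loss of ZMYND8 could not be checked. In the 1 Mb before the interval there were 1 knockout and 15 parental summits, the closest at 75011 and 74991 bp. In the 1 Mb after it there were 0 and 23, with 9 parental summits in the first 50 kb. The next knockout summit lay 1543 kb beyond the interval. At the edges of the arm, the first members were a knockout summit at 30309739 (score 4.48) and a parental one at 29428850 (7.54). The last ones before the arm lay at 26190105 in the knockout list (5.42) and 26190114 in the parental list (35.9). Both lie in the centromeric bands and so are in the counts of neither 20p nor 20q.

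Gene models on hg19 were at hand for only 13 transcripts of 20q, from 6 named genes and 1 transcript with no gene identifier, so this is a sample and not a survey of the arm. NTSR1, the receptor of the peptide neurotensin, had 0 knockout and 3 parental summits within 1 kb of its transcription start, at 61340188 in 20q13.33. They lay 311 bp upstream, 71 bp downstream and 525 bp downstream, with scores of 3.603, 2.80 and 4.77, and the body of the gene held 8 more. NCOA5, a coregulator of the oestrogen receptor, had 0 knockout and 2 parental summits near its start at 44718601 in 20q13.12, 131 and 638 bp downstream, with scores of 6.91 and 2.62. STAU1, a double-stranded RNA binding protein of RNA transport and decay, had 0 knockout and 1 parental summit near its start at 47804907 in 20q13.13. It lay 282 bp downstream with a score of 8.56, the highest of these promoter summits, and 3 more lay in the gene.

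The other sampled genes had no promoter summit in either list. APCDD1L, a relative of the WNT inhibitor APCDD1, had 0 knockout and 2 parental summits in its body in 20q13.32, the nearest 6.19 kb from its start. BCAS1, named for its amplification in breast carcinoma, is modelled by 7 transcripts from 3 starts in the summit-poor band 20q13.2, and its nearest parental summit lay 44.6 kb from a start. For FAM209A in 20q13.31 it lay 56.4 kb away. The transcript with no gene identifier, in 20q13.33, had its nearest parental summit 1008 bp upstream. The knockout summit closest to any of these starts was 88.0 kb from that of the unnamed transcript.

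The promoter sequences are shown to set genes with parental summits near a start (NCOA5, NTSR1, STAU1) beside one with none (FAM209A). They are RefSeq sequences of GRCh38.p14, matched by symbol for 4 of the 6 genes, and run from 250 bases before to 50 bases after the annotated start, 5′ to 3′ on the strand of the gene. STAU1 has 2 annotated starts, called A and B here, which lie far apart. They cannot both be the single hg19 start used above, and whether either of them is was not determined. Capitals mark CpG dinucleotides.
NCOA5: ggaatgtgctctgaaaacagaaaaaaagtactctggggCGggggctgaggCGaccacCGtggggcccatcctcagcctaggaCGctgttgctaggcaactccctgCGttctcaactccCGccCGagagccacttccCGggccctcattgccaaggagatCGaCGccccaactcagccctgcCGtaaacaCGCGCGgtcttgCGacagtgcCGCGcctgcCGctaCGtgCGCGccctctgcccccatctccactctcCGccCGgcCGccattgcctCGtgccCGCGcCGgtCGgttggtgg
NTSR1: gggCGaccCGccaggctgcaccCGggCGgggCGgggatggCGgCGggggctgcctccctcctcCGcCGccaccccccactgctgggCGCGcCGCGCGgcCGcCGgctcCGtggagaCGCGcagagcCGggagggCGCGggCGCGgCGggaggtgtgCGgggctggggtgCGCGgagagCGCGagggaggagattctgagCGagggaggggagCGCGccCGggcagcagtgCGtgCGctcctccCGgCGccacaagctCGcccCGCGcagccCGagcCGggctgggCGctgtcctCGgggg
STAU1, start A: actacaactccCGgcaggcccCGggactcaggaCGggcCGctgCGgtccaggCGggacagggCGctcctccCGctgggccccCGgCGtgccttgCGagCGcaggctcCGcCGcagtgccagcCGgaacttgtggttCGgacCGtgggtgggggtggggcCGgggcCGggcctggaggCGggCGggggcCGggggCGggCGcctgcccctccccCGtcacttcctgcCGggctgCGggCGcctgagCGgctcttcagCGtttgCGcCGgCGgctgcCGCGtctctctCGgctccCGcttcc
STAU1, start B: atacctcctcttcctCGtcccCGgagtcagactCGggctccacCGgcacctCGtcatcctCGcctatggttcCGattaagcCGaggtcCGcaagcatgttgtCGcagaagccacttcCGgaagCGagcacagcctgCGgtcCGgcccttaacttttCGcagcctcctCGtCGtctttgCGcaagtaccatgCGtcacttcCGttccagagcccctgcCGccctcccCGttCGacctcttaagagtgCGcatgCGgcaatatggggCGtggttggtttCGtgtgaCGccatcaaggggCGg
FAM209A: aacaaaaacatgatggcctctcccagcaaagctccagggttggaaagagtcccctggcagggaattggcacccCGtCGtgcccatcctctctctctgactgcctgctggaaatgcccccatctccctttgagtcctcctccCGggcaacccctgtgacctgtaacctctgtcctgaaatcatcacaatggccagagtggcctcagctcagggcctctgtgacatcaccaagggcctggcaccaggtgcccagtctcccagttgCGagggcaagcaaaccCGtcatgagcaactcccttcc

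The promoter sequences of the genes with parental summits near a start were rich in CpG. NTSR1 had 45 CpG in 300 bases, a count reached by 3.48% of the 35116 promoters in the RefSeq table, and a GC content of 81.7%. STAU1 had 37 at start A (11.3% of promoters have as many) and 29 at start B, and NCOA5 had 29 (24.24%). FAM209A had 5, a count that 70.4% of promoters reach, and the median of the table was 14. The GC box GGGCGG, searched on both strands, was in the promoters of NCOA5, NTSR1 and STAU1 (both starts) and not in that of FAM209A, and 44.95% of all promoters hold it. The letters GGGCGG include a CpG, so the box and the CpG count overlap. With 4 genes, this is a description of these sequences.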

How the data were processed

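ZMYND8 ChIP-seq was run on 1 knockout and 1 parental library of MDA-MB-231 mammospheres, grouped by their labelled genotype. The build hg19 is named in the submitters' processing notes, as are, without roles or settings, MACS2 2.0.10, Picard 1.127, Bowtie2 2.2.3 and FastQC 0.11.2. The control, the calling threshold, the handling of duplicates and the depth are not stated there or in the labels. In each deposited list a summit has a position and a score, which from the values is a −log10 p or q value of the authors' caller, without a statement which. Scores depend on depth and control, so they describe and rank summits within a list; a common minimum was set in both lists for some ratios, which are not read as a change in binding. Lists can differ in length through depth alone.

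The members and lists were chosen with earlier results of these data known. Positions are 1-based. Summits within 200 bp of each other counted as shared, and those beyond 1000 bp from any summit of the other list as unpartnered. The rest means all summits outside the arm. Ties took their best rank. Named by rule were the 10 highest summits of each list, the unpartnered knockout summits, the top of each run, and the fullest and empty windows; groups of knockout summits within 100 kb, the remaining knockout summits and the promoter measures were added after the data were seen. Bands of hg19 came from circlize 0.4.16. Transcripts came from example sets of GenomicFeatures 1.54.1 and pyranges 0.1.4, sources outside the deposited data, of which the pyranges set states no build. Gene lists planned for a full hg19 annotation were not used. The overlap step was tested on simulated summits. Software was Python 3.11.15 with scipy 1.17.1, pandas 2.3.3, matplotlib 3.10.9 and numpy 2.4.6.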

Additional observations from a re-analysis of the deposited data

How the results depend on the processing

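No paired analysis was possible because there is only 1 library on either side, and for the same reason no replicate could be left out. Shares and ratios were counted as held inside the 95% interval of the value reported above, and the number of runs within 1.5 times. Of 32 alternatives 19 held and 13 did not, and several that held leave out few summits and could hardly move. With a score of at least 10, the 20q share of the knockout list was 2.08% (1 of 48 summits) and that of the parental list 4.83%, and 20q held 0.719 knockout summits per 100 parental ones; the cause was not tested. With a score of at least 5 the parental share was 3.84%, and without the first 1 Mb of the arm it was 2.95%, which follows from leaving that part out. By construction the sharing distance moved the shared part of the 20q knockout summits, to 48.6% within 100 bp, 91.4% within 500 bp and 94.3% within 1000 bp. In the rest of the knockout list it was 63.4%, 89.9% and 93.4%. Parental summits of 20q with a knockout summit came to 3.96% within 1000 bp and, among the highest scoring 25% of the list, to 5.16%. The value within 1000 bp was 1.11% in the rest. Windows with a knockout summit came to 19.3% at 250 kb and 55.9% at 1 Mb, which follows from their size. With the 500 highest parental summits, 1 run was left. Leaving out the 15q24.2 run, and taking the 2000 highest summits for the share with a knockout neighbour, were added after seeing the data. Since depth is unknown, differences in list length cannot be told apart from differences in depth.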
